A study of Rattus norvegicus with 34 samples.

Results

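Retinal gene expression was compared between PKD rats injected with control liposomes and PKD rats that received no injection, in 6 rats per group, 12 of the 34 samples of the series. PKD rats are male homozygous transgenic rats of the line labelled PKD2(HA-1/703-CMV-247), which overexpress a truncated polycystin-2 from the broadly active CMV promoter and lose photoreceptors and retinal capillaries. Rats of the liposome group (labelled PKD + Controlliposomes) received 3 µl into the vitreous at 4 and at 8 weeks of age. Control liposomes are lipid vesicles without clodronate, the drug by which liposomes kill the phagocytes that take them up. All rats were killed at 9 weeks, 1 week after the last injection of the injected rats. Uninjected Sprague Dawley (SD) rats of that age (n = 6) and PKD rats injected with clodronate liposomes by the same schedule (n = 5) entered the same statistical fit, so that 23 rats were used in all. The comparison asks what an injection of liposomes alone changes in the degenerating retina. It holds the needle, the volume, the anesthesia, and the vesicles at once. These cannot be told apart, since the PBS-injected PKD rats were not analysed here. The animal numbers of the injected rats are all lower than those of the untreated PKD rats, and their meaning is not given. A difference between such sets of animals cannot be told apart from the injection either, and was not tested.

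Quantitative PCR was run on TaqMan cards. A card read 44 genes of inflammation, glia, and vessels and 4 reference genes in a rat, each in 1 well. Each well gave a quantification cycle (Cq), the PCR cycle at which the product is detected, so that a lower Cq means more transcript. Of the 576 wells of the 12 rats, 25 gave no Cq, 9 in untreated and 16 in liposome-injected PKD rats. The Cq values lay between 6.36 and 34.97, and the median of the 44 genes was 24.1. Expression is given on the log2 scale. The Cq of a gene was subtracted from the average Cq of *18S*, *B2m*, *Mrpl19*, and *Ywhaz* in the same rat, and the mean of the untreated PKD rats was set to 0. A value of 1 is therefore a doubling of transcript if the product doubles in every cycle. Rats carry the numbers 1 to 6 within their group as names only. The cards hold no gene that defines photoreceptors or other retinal neurons, so the tissue was not checked against such markers. The microglial genes *Aif1*, *Itgam*, and *Tyrobp* gave a Cq in each of the 12 rats.

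Microglia are the resident phagocytes of the retina, and they take up particles from the vitreous and the tissue. When they are activated by damage or by material to engulf, they express more complement, Fc receptors, and surface proteins of phagocytosis, and Müller cells and astrocytes respond with *Gfap* and acute-phase proteins. Complement C1 cleaves the early components of the cascade, C3 is the component on which its pathways meet, and its fragments mark material for phagocytes that carry the receptor CR3, of which *Itgam* encodes a chain.

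Liposome-injected rats had more *C3* than untreated PKD rats, by 1.16 on the log2 scale or 2.24-fold (95% interval 0.51 to 1.82, limma adjusted p = 0.0490). It was the 1 gene of 41 tested that passed the threshold of 0.05 after adjustment, which is 2.44%. The microglial genes *Itgam* and *Aif1* were higher by 0.67 and 0.65, the complement protease *C1s* by 0.86, and the growth factor *Fgf2* was lower by 0.40, all without passing that threshold. Before adjustment, 7 genes or 17.1% had a p under 0.05, of which 6 (14.6%) were higher (*C3*, *Itgam*, *Aif1*, *C1s*, *Sphk1*, and *Trem2*) and 1 (2.44%, *Vegfa*) was lower. When the 12 rats of the compared groups were fitted alone, 5 genes or 12.2% passed after adjustment. These were *C3*, *Itgam*, *Aif1*, and *C1s*, higher (9.76%), and *Fgf2*, lower. An exact permutation test over the rats, adjusted in the same way, passed 4 genes or 9.76% (*C3*, *Itgam*, *Aif1*, and *Fgf2*). The fit of 4 groups estimates the spread of a gene from the SD rats also, whose spread was wider than that of the untreated PKD rats in 35 of 41 genes (median SD 0.711 against 0.324). The values of the liposome-injected rats had a median SD of 0.483.

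**Figure D1:**
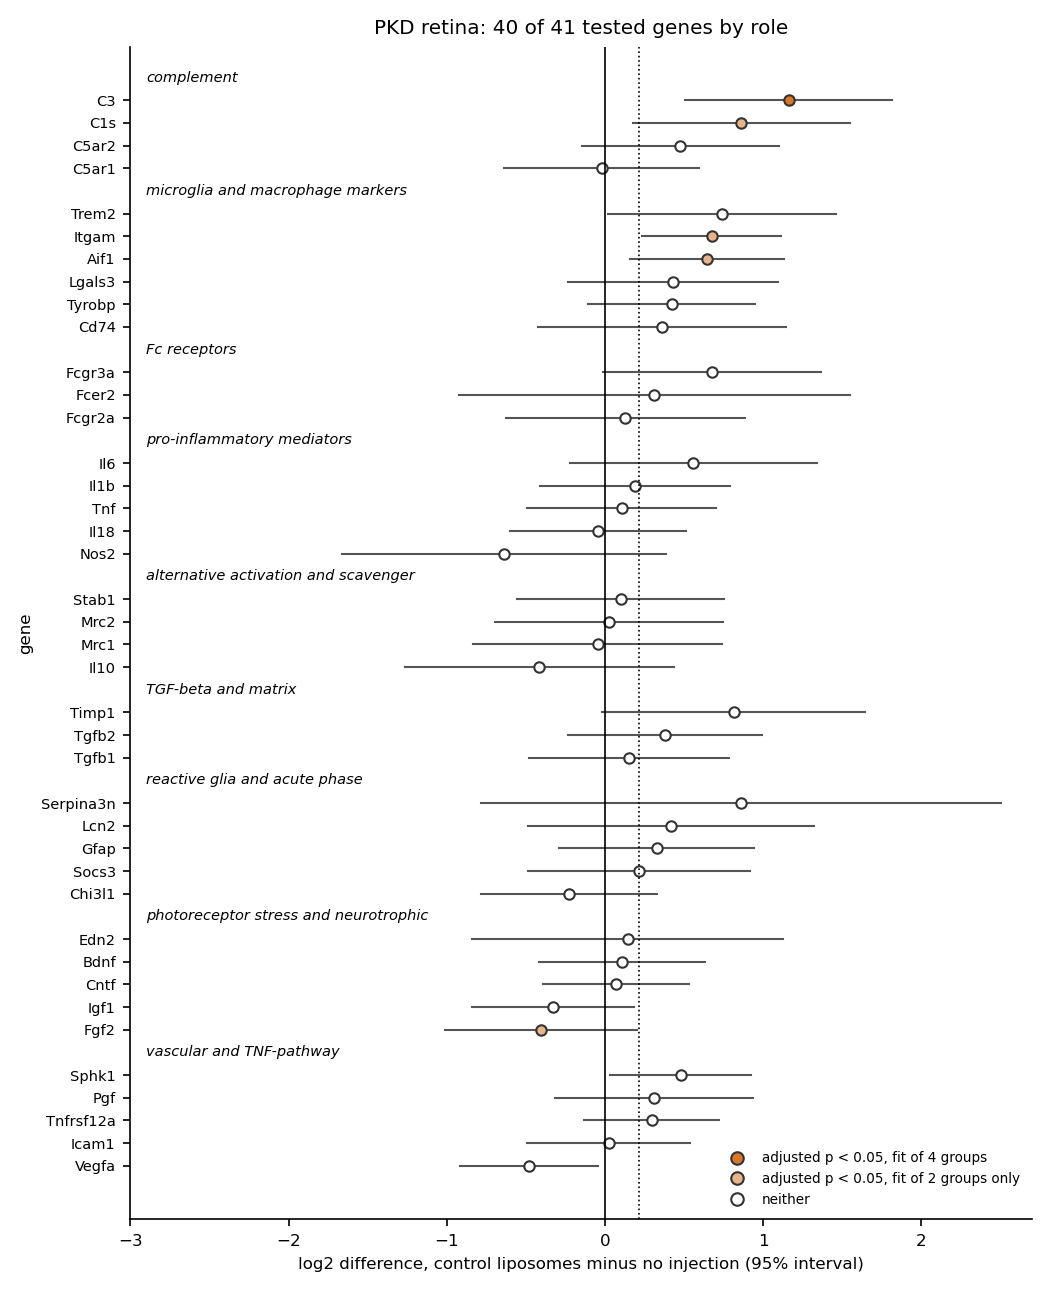
The log2 difference between liposome-injected and untreated PKD rats (x axis) is plotted for 40 of the 41 tested genes by role (y axis), with 95% intervals of the fit of 4 groups. The dotted line is the median difference of 0.22 over the 41 genes. The intervals of *C3*, from 0.51 to 1.82, and of *Itgam*, from 0.23 to 1.11, lie entirely above it. The distance of a gene from this median was not tested.

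Among complement genes, *C3* stood in the untreated PKD rats at −0.15, 0.16, 0.021, 0.12, −0.17, and 0.0073. In the liposome-injected rats it stood at 0.68, 1.60, 1.51, 1.85, 1.01, and 0.32. The lowest injected rat lay above the highest untreated one, while the injected rats ranged widely and the untreated rats hardly at all (SD 0.592 against 0.137). Groups without overlap were found for 3 of the 41 genes (7.32%), *C3*, *Itgam*, and *Fgf2*, and for each the exact permutation p was 0.00216, the smallest that 6 against 6 rats allow. The mean Cq of *C3* was 23.1 in untreated and 21.9 in injected rats. The adjusted p of *C3* rested on the choice of rats in the fit of 4 groups. It was 0.0395 without liposome rat 1 and 0.0153 without liposome rat 6, whereas leaving out any of the other 10 rats, liposome rats 2 to 5 and the 6 untreated PKD rats, gave 0.0738 to 0.161. In the fit of 2 groups *C3* passed in all 12 fits without 1 rat.

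*C1s* encodes a serine protease of the C1 complex. It stood at −0.15, 0.56, 0.081, −0.018, −0.32, and −0.15 in the untreated rats. In the liposome-injected rats the values were 0.72, 1.13, 1.55, 1.25, 0.21, and 0.31. The groups overlapped through untreated rat 2 and liposome rats 5 and 6, which were the lowest injected rats (difference 0.86, 95% interval 0.18 to 1.55, limma adjusted p = 0.158, and 0.0415 in the fit of 2 groups). Both receptors for the complement fragment C5a missed the threshold, with differences of 0.48 for *C5ar2* (−0.15 to 1.10) and −0.019 for *C5ar1* (−0.64 to 0.60). In all, 3 of the 4 complement genes were higher and 1 lower, with a median of 0.67 (4 higher and 0 lower without *18S* or without *B2m*), beside 31 higher (75.6%) and 10 lower with a median of 0.22 over the 41 genes.

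The promoters of *C3* and *Itgam* are shown because these genes were the 2 whose groups did not overlap upwards. They span 250 bases before to 50 bases after the start of the gene in RefSeq, build GRCr8, *C3* at chr9:2201290-2201589 on the minus strand and *Itgam* at chr1:192089342-192089641 on the plus strand. Capitals mark matches on either strand to GAGGAA, a core letter pattern of PU.1 and other ETS factors of myeloid cells, to TTCNNNGAA, the STAT pattern, and to TTNNGNAA, a C/EBP pattern.
C3: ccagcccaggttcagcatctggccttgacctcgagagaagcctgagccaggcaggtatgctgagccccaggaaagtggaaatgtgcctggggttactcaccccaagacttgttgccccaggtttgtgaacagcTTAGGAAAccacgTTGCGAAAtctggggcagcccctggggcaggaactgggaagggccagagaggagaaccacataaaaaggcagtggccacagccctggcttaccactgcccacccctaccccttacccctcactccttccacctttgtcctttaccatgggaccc
Itgam: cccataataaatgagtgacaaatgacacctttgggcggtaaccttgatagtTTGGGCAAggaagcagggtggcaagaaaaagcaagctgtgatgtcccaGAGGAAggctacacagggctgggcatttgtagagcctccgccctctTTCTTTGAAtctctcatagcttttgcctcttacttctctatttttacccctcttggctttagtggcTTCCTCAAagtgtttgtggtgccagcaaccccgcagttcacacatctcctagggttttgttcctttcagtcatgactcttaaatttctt
The window of *C3* held 2 matches to TTNNGNAA and none to the other patterns. The window of *Itgam* held 2 matches to GAGGAA, 1 to TTCNNNGAA, and 2 to TTNNGNAA, 1 of which overlaps a GAGGAA match. Over 33469 promoters of the same length, GAGGAA was present in 27.6%, TTCNNNGAA in 8.87%, and TTNNGNAA in 41.3%. A match is a run of letters and not a site of binding.

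Microglia and macrophage markers were higher in 6 of 6 genes, beside 75.6% of all 41 tested genes. Their median was 0.54 and their range 0.36 to 0.74. None passed the adjusted threshold in the fit of 4 groups with the 4 reference genes, empty wells omitted, and no array weights. With array weights, or with empty wells set to 40 cycles, *Itgam* passed in that fit. *Itgam*, which encodes the αM chain of CR3 (CD11b), stood at −0.051, −0.0071, 0.10, −0.27, 0.00032, and 0.23 in the untreated rats. In the liposome-injected rats the values were 0.65, 1.08, 0.79, 0.72, 0.45, and 0.36. The groups did not overlap, and the difference of 0.67 (95% interval 0.23 to 1.11, 1.60-fold) had a limma adjusted p of 0.0844 in the fit of 4 groups and of 0.0144 in the fit of 2 groups. In the latter fit *Itgam* passed without each of the 12 rats in turn.

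*Aif1* encodes Iba1, a calcium-binding protein of microglia and macrophages. Its values were −0.084, 0.22, −0.55, −0.25, 0.20, and 0.47 in the untreated rats. The liposome-injected rats had 0.52, 0.86, 0.70, 0.83, 0.67, and 0.29. Liposome rat 6 alone lay below an untreated rat, the untreated rat 6 (difference 0.65, 95% interval 0.16 to 1.13, limma adjusted p = 0.153 in the fit of 4 groups, 0.0415 in the fit of 2 groups, exact adjusted p = 0.0444). In the fit of 2 groups *Aif1* passed in 3 of the 12 fits without 1 rat, namely without liposome rat 6 (0.0281), untreated rat 2 (0.0451), or untreated rat 6 (0.0229). In RNA of whole retina, more microglia, more macrophages, and more *Aif1* transcript per cell cannot be told apart. The same holds for the other cell markers.

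*Trem2* encodes a lipid-sensing receptor of microglia that signals through the adaptor encoded by *Tyrobp*. *Trem2* was detected late, at a mean Cq of 29.7 in untreated and 29.0 in injected rats. Its values were −0.72, −0.80, 0.59, 0.37, 0.026, and 0.52 in the untreated and 0.58, 0.29, 0.69, 1.13, 1.15, and 0.59 in the injected rats. Untreated rats 1 and 2 stood apart below the others, and the difference was 0.74 (95% interval 0.022 to 1.46, limma adjusted p = 0.250). *Cd74*, the invariant chain of MHC class II and a marker of activated microglia, had values of −0.37, 0.41, 0.065, −0.13, −0.085, and 0.11 in untreated rats. Injected rats had 0.047, −0.45, 1.42, 0.47, 0.17, and 0.52. They included both the lowest and the highest of all 12 values, and the difference of 0.36 had an interval from −0.42 to 1.15. It was 0.15 without liposome rat 3 and 0.14 relative to the specific genes. *Tyrobp* differed by 0.42 (−0.10 to 0.95) and *Lgals3*, a galectin of phagocytes, by 0.43 (−0.23 to 1.10). Of the Fc receptors, which bind antibody, *Fcgr3a* differed by 0.68 (−0.0095 to 1.36), *Fcer2* by 0.31 and *Fcgr2a* by 0.13, and all 3 missed the threshold. *Fcer2* and *Fcgr2a* were detected late, at a mean Cq of 33.5 and 31.6 in untreated and 33.2 and 31.5 in injected rats.

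**Figure D2:**
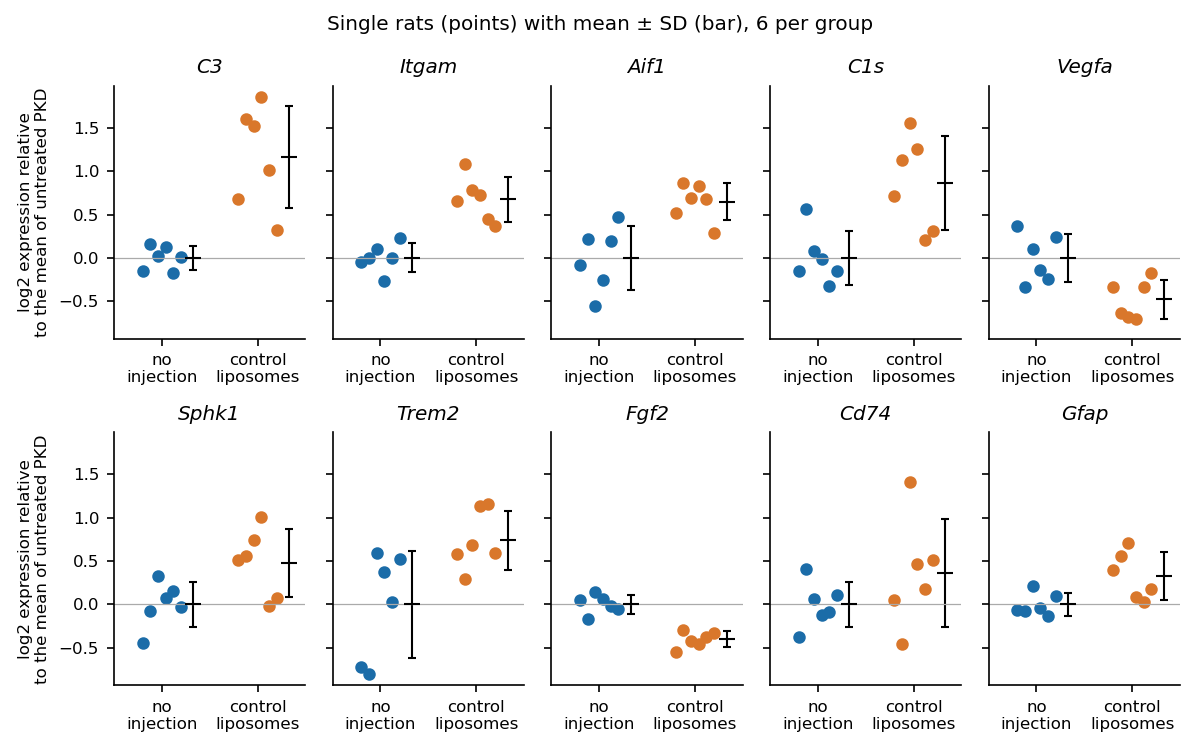
Expression of 10 genes on the log2 scale relative to the mean of untreated PKD rats (y axis) is plotted for single rats (points) in 2 groups (x axis), with the mean ± SD of 6 rats beside them. The groups are separate for *C3*, *Itgam*, and *Fgf2*, and for *C3* the injected rats spread from 0.32 to 1.85.

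The rise in *C3* was set against other genes of the same rat, since such a ratio does not use the reference wells. *C3* is the gene with the largest difference in these same rats. The adjustment over the 4 ratios does not cover its choice among the 41 tested genes, so the p-values of the ratios only describe them. Relative to *Tyrobp*, *C3* stood at −0.0044, −0.13, −0.32, 0.00097, −0.082, and 0.071 in untreated rats. In the liposome-injected rats the ratio was 0.53, 0.90, 0.43, 0.86, 0.97, and 0.28. The groups did not overlap, and the mean log2 ratio was higher by 0.74 (exact permutation p = 0.00216, 0.00866 adjusted over the 4 ratios). The ratio of *C3* to *Gfap* was higher by 0.83 (exact adjusted p = 0.0130) and that to *Itgam* by 0.49 (exact adjusted p = 0.0462). Relative to *Aif1* the difference was 0.52 and did not pass (exact adjusted p = 0.0541). The call relative to *Itgam* was lost without any of 8 rats (liposome rats 2 to 5 and untreated rats 1, 3, 5, and 6), where the difference was 0.36 to 0.48. That relative to *Aif1* was gained without any of 4 rats (liposome rats 1 and 6, untreated rats 3 and 4), where it was 0.59 to 0.63.

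The reference wells were compared also. The mean Cq of the 4 reference genes was 16.5 ± 0.221 cycles (SD, n = 6) in untreated and 16.4 ± 0.175 cycles (SD, n = 6) in injected rats, a difference of −0.034 cycles (exact permutation p = 0.775). *Mrpl19*, a mitochondrial ribosomal protein, was detected at 23.32, 23.08, 23.60, 23.37, 23.14, and 23.31 cycles in untreated rats. In injected rats it was detected at 23.74, 23.39, 23.32, 23.66, 23.82, and 23.89 cycles. The injected rats were later by 0.33 cycles (exact permutation p = 0.0195, adjusted p = 0.0974 over the 4 genes and their mean). *B2m*, the light chain of MHC class I, was detected at 17.41, 17.28, 17.49, 17.93, 17.40, and 17.72 cycles in untreated rats. Injected rats had 17.69, 17.38, 16.47, 16.33, 17.69, and 17.88 cycles. Liposome rats 3 and 4 were earlier than all other rats, and these rats were among the 3 highest in *C3* and the 2 highest in *C1s*. Without *B2m* among the reference genes, the difference between the groups was 1.25 for *C3* (limma adjusted p = 0.0841) and 0.95 for *C1s* (limma adjusted p = 0.213), both larger than with it. Without *18S*, *C1s* passed in the fit of 4 groups (0.95, limma adjusted p = 0.0446), as did *Itgam* (0.76, limma adjusted p = 0.0226). The difference of *B2m* was −0.30 cycles (exact permutation p = 0.359), and −0.43 to −0.12 with 1 rat left out. *18S* ribosomal RNA, at 7.18, 7.56, 8.15, 6.82, 6.55, and 6.36 cycles in untreated and 6.54, 6.45, 7.45, 7.17, 6.60, and 6.65 cycles in injected rats, differed by −0.29 cycles (exact permutation p = 0.379), and by −0.44 to −0.082 with 1 rat left out. *Ywhaz*, a 14-3-3 adaptor protein, was detected at 17.69, 17.74, 18.30, 18.17, 18.08, and 17.91 cycles in untreated rats. In injected rats it was detected at 18.24, 17.87, 18.17, 17.97, 17.92, and 18.45 cycles, a difference of 0.12 cycles (exact permutation p = 0.379), and of 0.051 to 0.18 with 1 rat left out.

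The choice of reference genes moved both the size of the *C3* difference and its call. Without *18S* it was 1.25 (limma adjusted p = 0.0111), without *B2m* 1.25 (0.0841), without *Mrpl19* 1.04 (0.156), and without *Ywhaz* 1.11 (0.0694). With the 40 specific genes that had a Cq in every rat averaged as the reference, which moved the median of the 41 genes from 0.22 to −0.0094, it was 0.94 (0.0153). On that scale the difference of every gene is lower by 0.22 than with the reference genes, so that 11 of the 41 differences had the other sign. There 20 genes were higher and 21 lower, a split that follows largely from averaging these same genes as the reference. The microglial genes were still higher in 6 of 6. On this scale 5 genes passed, *C3*, *C1s*, and *Itgam* higher and *Fgf2* and *Igf1* lower.

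**Figure D3:**
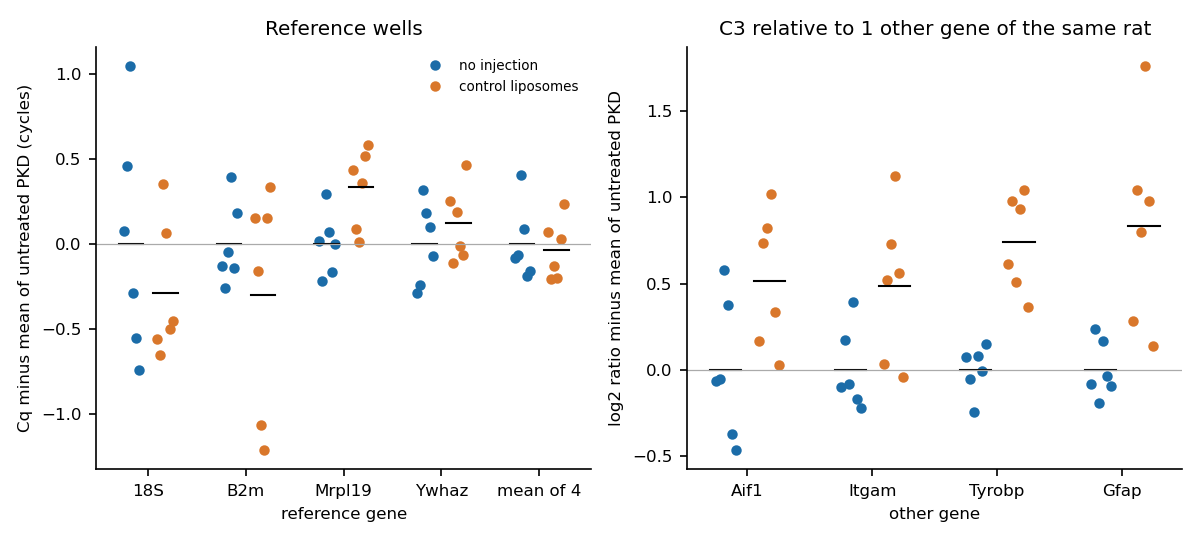
Left, the Cq of each reference gene and of their mean minus the mean of untreated PKD rats (y axis, cycles), and right, the log2 ratio of *C3* to 1 other gene minus the mean of untreated PKD rats (y axis), for single rats (points) with group means (lines). *B2m* was early in 2 injected rats, at 16.47 and 16.33 cycles, and the ratio of *C3* to *Tyrobp* separated the groups.

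Photoreceptor stress and neurotrophic factors missed the threshold in the fit of 4 groups with the 4 reference genes. There 3 genes were higher and 2 lower, with a median of 0.071. Without *Mrpl19* 1 gene was higher and relative to the specific genes none. *Fgf2*, a survival factor that injured photoreceptors and Müller cells express, was the member whose groups did not overlap. It stood at 0.049, −0.17, 0.14, 0.060, −0.024, and −0.055 in untreated rats. In liposome-injected rats the values were −0.54, −0.29, −0.42, −0.46, −0.38, and −0.33. The spread within both groups was narrow (SD 0.108 and 0.0910) and all injected rats were below all untreated rats. The difference was −0.40, or 0.757-fold (limma adjusted p = 0.460 in the fit of 4 groups, 0.0475 in the fit of 2 groups, exact adjusted p = 0.0296). Relative to the specific genes it was −0.63 and passed in the fit of 4 groups (limma adjusted p = 0.0457). In the fit of 2 groups it passed in 1 of the 12 fits without 1 rat, that without untreated rat 2 (0.0451). In the SD rats *Fgf2* was at −3.13 ± 0.905 (SD, n = 6), with a range from −4.04 to −1.46, so that the liposome-injected rats stayed above all SD rats. The growth factor *Igf1* differed by −0.33 (−0.84 to 0.18), and by −0.55 relative to the specific genes, where it passed, and *Edn2*, an endothelin of stressed photoreceptors, *Bdnf*, and *Cntf* by 0.14, 0.11, and 0.071.

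Genes of reactive glia and of the acute phase were higher in 4 of 5 genes with a median of 0.33, and in 3 of 5 relative to the specific genes. None of them passed. Over all 41 tested genes, 31 (75.6%) were higher, and 20 relative to the specific genes. *Gfap*, the intermediate filament of reactive Müller cells and astrocytes, stood at −0.068, −0.072, 0.21, −0.042, −0.13, and 0.10 in untreated rats. In injected rats the values were 0.40, 0.55, 0.71, 0.090, 0.027, and 0.18. Liposome rats 1 to 3 were above every untreated rat and rats 4 to 6 were not. The difference of 0.33 had an interval from −0.29 to 0.95 (limma adjusted p = 0.569, exact adjusted p = 0.124). Relative to the specific genes the difference of *Gfap* was 0.10, and so was the median of the 5 genes. *Serpina3n*, a protease inhibitor, had a difference of 0.86 with the widest interval of the 41 genes (−0.78 to 2.50), and the difference was 0.37 without liposome rat 5. *Lcn2*, an iron-siderophore carrier, differed by 0.42 (−0.49 to 1.32), *Socs3*, a brake on cytokine signaling, by 0.22, and *Chi3l1* by −0.23. Without untreated rat 5 *Chi3l1* differed by −0.12.

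Among vascular and TNF-pathway genes, *Vegfa*, the growth factor of vessels and of their permeability, stood at 0.37, −0.33, 0.097, −0.14, −0.24, and 0.24 in untreated rats. The injected rats had −0.33, −0.64, −0.68, −0.71, −0.33, and −0.18. All 6 were below the mean of the untreated rats, but the groups overlapped (difference −0.48, 95% interval −0.92 to −0.041, limma adjusted p = 0.250). *Sphk1* encodes the kinase that makes sphingosine 1-phosphate. It stood at −0.44, −0.082, 0.32, 0.072, 0.16, and −0.030 in untreated and 0.51, 0.55, 0.74, 1.00, −0.017, and 0.075 in injected rats. Liposome rats 1 to 4 were above all untreated rats (difference 0.48, 95% interval 0.030 to 0.93, limma adjusted p = 0.250). Relative to the specific genes it differed by 0.25. The TWEAK receptor *Tnfrsf12a* differed by 0.30 (−0.13 to 0.72), the placental growth factor *Pgf* by 0.31 (−0.31 to 0.93), and the adhesion molecule *Icam1* by 0.023 (−0.49 to 0.54). Relative to the specific genes *Tnfrsf12a* differed by 0.072 and *Pgf* by 0.085.

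Cytokines and polarization genes did not pass. Of the 5 pro-inflammatory mediators, 3 were higher and 2 lower, with a median of 0.11, but 2 were higher and 3 lower without *Mrpl19* (median −0.016) and 1 was higher and 4 lower relative to the specific genes (median −0.12). *Il6* differed by 0.56 (−0.22 to 1.34), *Il1b* by 0.19 (−0.41 to 0.79), *Tnf* by 0.11 (−0.49 to 0.70), and *Il18* by −0.047. *Il6*, *Tnf*, and *Il10* were detected late. Their mean Cq was 32.4, 33.5, and 32.3 in untreated and 31.8, 33.4, and 32.7 in injected rats. *Nos2*, the inducible nitric oxide synthase, differed by −0.64 with an interval from −1.66 to 0.38. Of the genes of alternative activation, *Il10*, an anti-inflammatory cytokine, differed by −0.41 (−1.27 to 0.44), and the scavenger receptors *Mrc1*, *Mrc2*, and *Stab1* by −0.047, 0.029, and 0.10. The matrix protease inhibitor *Timp1* differed by 0.81 (−0.018 to 1.65), *Tgfb2* by 0.38 and *Tgfb1* by 0.15. Several of these small differences rested on liposome rat 3. Without it *Tgfb2* differed by 0.049, *Tgfb1* by 0.018, *Il1b* by 0.0034, *Pgf* by 0.16, and *Fcer2* by 0.070. Without liposome rat 1 *Il10* differed by −0.17 and *Il1b* by 0.35, and without liposome rat 3 *Il10* differed by −0.76. *Nos2* differed by −0.39 without untreated rat 5 and by −0.98 without untreated rat 1. *Tgfb1* differed by 0.37 without untreated rat 3, and *Fcer2* by 0.54 without untreated rat 2. *Lgals3* differed by 0.25 and *Edn2* by 0.040 without untreated rat 1, and *Bdnf* by 0.015 without untreated rat 5. In 9 of the 41 genes the sign of the difference changed when 1 rat was left out, and none of these differences exceeded 0.13 in size. They were *Fcgr2a*, *C5ar1*, *Cntf*, *Icam1*, *Il18*, *Mrc1*, *Mrc2*, *Stab1*, and *Tnf*.

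In 3 further genes of that state the wells gave too few Cq values for the fit. *Chi3l3*, a chitinase-like protein, gave a Cq in 4 of 6 untreated rats, at 34.97, 28.11, 27.51, and 28.42 cycles, and in 0 of 6 liposome-injected rats (Fisher's exact p = 0.0606, adjusted p = 0.182 over the 3 genes). It gave none in SD or clodronate-treated rats either. *Il13* gave a Cq in 3 untreated and 1 injected rat and *Retnla* in 2 and 1 (Fisher's exact p = 0.545 and 1). When empty wells were set to 40 cycles, *C3* and *Itgam* passed as higher in the fit of 4 groups. *Chi3l3* also passed as lower, but all its values in 3 of the 4 groups were then the imputed one, so this call rests on the imputation.

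The other groups of the fit place these differences. SD rats are the healthy strain, and clodronate-treated rats received liposomes as well. *C3* was at −1.13 ± 0.774 (SD, n = 6) in SD rats, 0 by definition in untreated PKD rats, 0.53 ± 0.532 (SD, n = 5) in clodronate-treated, and 1.16 ± 0.592 (SD, n = 6) in liposome-injected PKD rats. The last 2 groups differed by 0.63, with an interval from −0.056 to 1.32 (limma adjusted p = 0.410). *C1s* was at 0.93 ± 0.468 (SD, n = 5) in clodronate-treated rats and differed from the liposome-injected rats by −0.070 (−0.79 to 0.65). *Fgf2* was at −0.68 ± 0.416 (SD, n = 5) in clodronate-treated rats and *Sphk1* at 0.47, and their differences of 0.27 and 0.0080 from the liposome-injected rats missed the threshold (limma adjusted p = 0.600 and 0.982). Between liposome-injected and clodronate-treated rats 2 of 41 genes passed (4.88%), *Itgam* and *Aif1*. *Itgam* was at −0.13 ± 0.191 (SD, n = 5) in clodronate-treated rats, lower by 0.81 than in liposome-injected rats (limma adjusted p = 0.0278). *Aif1* was at −0.35 ± 0.477 (SD, n = 5), lower by 0.99 (limma adjusted p = 0.0194). These comparisons share the liposome-injected or the untreated PKD rats and are therefore not independent of each other.

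**Figure D4:**
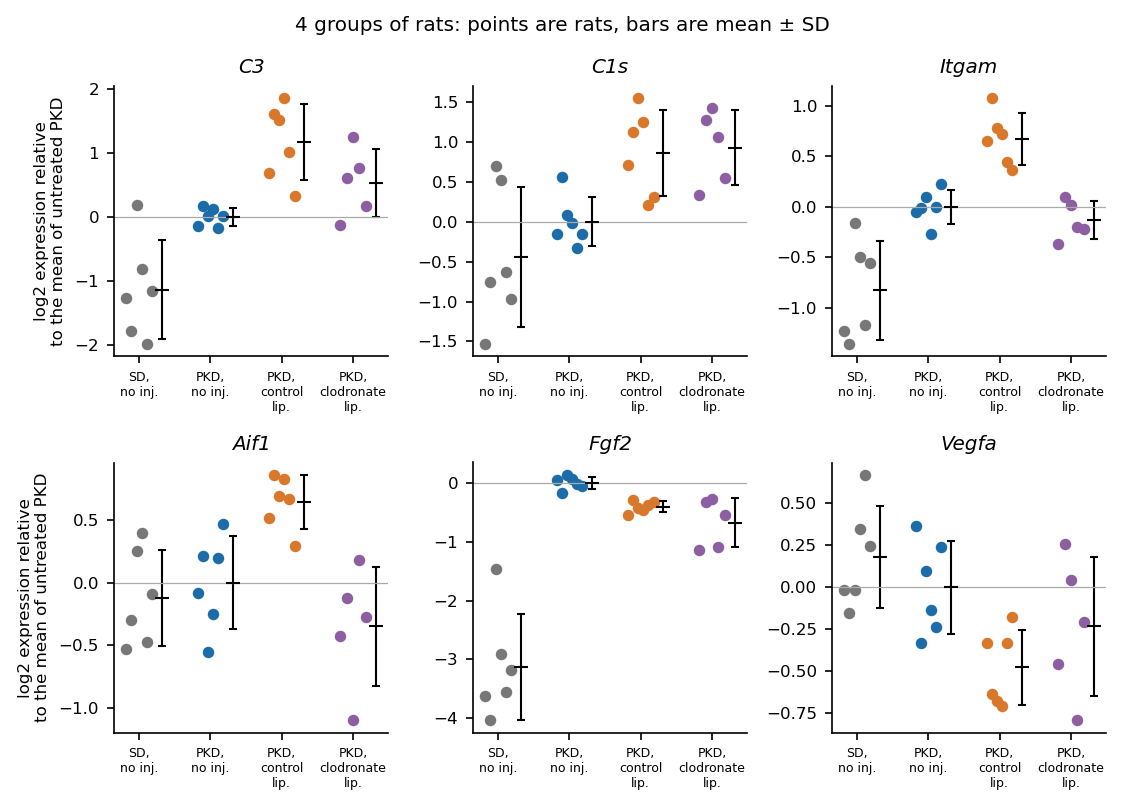
Expression of 6 genes on the log2 scale relative to the mean of untreated PKD rats (y axis, scaled for each gene) is plotted for single rats (points) of 4 groups (x axis), with mean ± SD. *C1s* was high in both liposome groups, at 0.86 and 0.93, whereas *Itgam* and *Aif1* were high in the group with control liposomes, at 0.67 and 0.65.

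**Figure D5:**
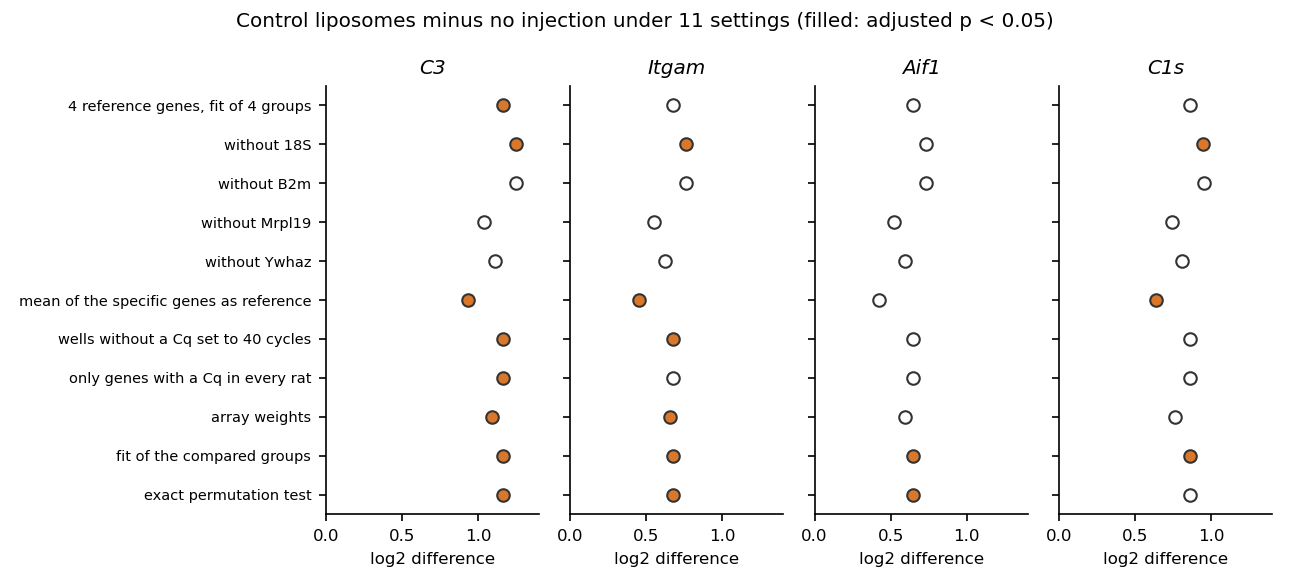
The log2 difference of 4 genes between liposome-injected and untreated PKD rats (x axis) is plotted under 11 ways of computing or testing it (y axis), filled where the adjusted p is under 0.05. *C3* lay between 0.94 and 1.25 and *Itgam* between 0.45 and 0.76, and *C3* missed the threshold without *B2m*, *Mrpl19*, or *Ywhaz*.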

How the data were processed

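Retinal RNA of single rats was reverse transcribed, pre-amplified for 14 cycles, and measured on TaqMan cards. The authors deposited a table of Cq values (another unit, in cycles) for 48 wells, before subtraction of reference genes. They also deposited a table of their own fold changes between group means, which was not used. Groups of the Cq columns were taken from the sample list of the study's supplement, and wells were named by matching Cq values with its gene-wise list (48 of 48 within 0.001 cycles). A further 11 of 34 columns were not used, since their group was not given. Nothing in the sources used here assigns rats to cards or runs, so a card effect was not tested.

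Since no copy number belongs to a Cq, precision was judged by the spread over rats. Empty wells were omitted, and genes with at least 3 Cq values in each group were tested (41 of 44). The fit used limma 3.58.1 (R 4.3.3) over 4 groups, following the one-way analysis of the study's methods, with Benjamini–Hochberg adjustment over the 41 genes and a threshold of 0.05. Exact tests were two-sided (scipy 1.17.1), plots were drawn with matplotlib 3.10.9, and the fit was tested on simulated data. Rats were counted as replicates.

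Values of every rat are given for genes with an unadjusted p under 0.05 or without overlap between groups, for *Aif1*, *Itgam*, *Cd74*, *Gfap*, and *Fgf2*, and for the reference genes. The members, the gene lists, and this rule were chosen with earlier results of these data known. All 44 symbols were found in the RefSeq table (GRCr8), and promoters were found for 8 of the 10 genes shown by rat. Alternatives changed the reference genes, the treatment of empty wells, the fitted groups, and the test. The fits of 2 groups without 1 rat were added after seeing the data. The values of 1 tested gene are not reported here.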

Additional observations from a re-analysis of the deposited data

How the results depend on the processing

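The number of genes past the threshold was 1 in the fit of 4 groups. It was 3 without *18S*, 0 without *B2m*, *Mrpl19*, or *Ywhaz* (8, 6, and 7 genes with an unadjusted limma p under 0.05), and 5 relative to the specific genes. It was 3 with empty wells at 40 cycles, 2 with array weights, 5 in the fit of the compared groups, and 4 by exact permutation. With 1 rat left out it ranged from 0 to 5, that is 0 or 1 in the fit of 4 groups and 2 to 5 in the fit of 2 groups. With 1 rat left out, the difference of *C3* ranged from 1.02 to 1.33, and none of the 10 genes shown by rat changed direction in any alternative. The ratios of *C3* ranged from 0.42 to 0.63 (*Aif1*), 0.36 to 0.59 (*Itgam*), 0.68 to 0.82 (*Tyrobp*), and 0.65 to 0.97 (*Gfap*). The *Mrpl19* difference ranged from 0.28 to 0.40 cycles and passed without liposome rat 3 (0.40, exact adjusted p = 0.0433). The mean reference Cq difference ranged from −0.088 to 0.047 cycles and changed sign without liposome rat 2 (0.00063) and without untreated rat 3 (0.047). The cause of these changes was not tested. No Cq of the 12 rats was above 35, so counting later values as no Cq left the detected wells of *Chi3l3*, *Il13*, and *Retnla* as they were. No paired analysis was possible because the columns carry animal numbers and no replicate numbers. The injected and the untreated rats were separate animals, and no source used here describes pairs among them. A shared replicate number would therefore not by itself make a pair.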
